A study of Mus musculus with 36 samples.

Results

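Club cells are the dome-shaped secretory cells of the small airways. The 7 genes listed for them were the secretoglobins Scgb1a1, Scgb3a2 and Scgb3a1, the enzymes Cyp2f2, Cbr2 and Aldh1a1, and the lectin Reg3g. Members were the probe sets that the array's annotation gives to a single one of these symbols. Each gene had 1 such probe set, so 7 of the 18193 genes with a single-symbol probe set were described, and 7 of the 45037 probe sets tested. The samples were left lungs of male mice, 7 to 13 weeks old, that inhaled 0.3 ppm ozone or air continuously by the whole-body route, and total RNA of each lung was hybridized to its own array, 36 arrays in all. There were 12 groups of 3 mice: Notch3-/- mice (allele Notch3tm1Grid), Notch4-/- mice (allele Notch4tm1Grid) and the WT controls, which were B6129SF1/J hybrids of wild-type genotype, each in air and after 6, 24 and 48 hr of ozone. The knockout lines and the WT hybrids differ in strain as well as in the Notch allele, so knockout and strain background cannot be told apart. The cells that made each transcript in whole lung were not identified. Fewer such cells and less RNA per cell cannot be told apart either.

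Secretoglobins are small secreted proteins of the airway lining fluid. Scgb1a1 encodes the club cell secretory protein CC10, the classic marker of these cells, Scgb3a2 is made by bronchiolar club cells, and Scgb3a1 is made by secretory cells of the larger conducting airways. Cyp2f2 is the mouse cytochrome P450 that activates naphthalene in club cells, Cbr2 is a carbonyl reductase abundant in mouse lung, and Aldh1a1 oxidizes retinaldehyde and other aldehydes. Reg3g is a secreted C-type lectin that kills Gram-positive bacteria at mucosal surfaces. In the developing mouse airway, Notch signaling favors the secretory over the ciliated fate.

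The deposited values are log2 values in which the middle of the 36 arrays is set to zero for each probe set, so every level below is a log2 level relative to that median array. Such levels compare mice for 1 gene, but not 1 gene with another, and they do not show how abundant a transcript was. A difference was called when its limma p, adjusted over all 45037 probe sets, was under 0.05. Notch3 (probe set 1421964_at) was at -1.71 or below in all 12 Notch3-/- mice and at -0.37 or above in all 12 WT mice. Notch4 (1449146_at) was at -1.40 or below in Notch4-/- mice and at -0.38 or above in WT mice. Replicates 1 and 2 of Notch4-/- mice in air stood apart at -1.97 and -1.40, while the other 10 Notch4-/- mice were at -3.42 or below. The called results that rest on these air mice are therefore also given without them. Their intermediate signal rests on this probe set. On 1456263_at they were at -0.47 and -0.19, and Notch4-/- replicates 1 and 3 at 48 hr at -0.29 and -0.28. Notch4 probe set 1436901_at did not separate the lines (means -0.02 in Notch4-/- and 0.06 in WT mice).

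RefSeq promoters (GRCm38.p6, 250 bases before to 50 after the start site) were found for 5 of the 7 genes, namely Scgb3a1, Reg3g, Cyp2f2, Cbr2 and Aldh1a1. Those of the pairs whose levels moved most closely together across mice, Scgb3a1 with Reg3g and Cyp2f2 with Cbr2, are shown here. They lie at chr11:49663345-49663644 on the plus strand (Scgb3a1), chr6:78468825-78469124 on the minus strand (Reg3g), chr7:27119705-27120004 on the plus strand (Cyp2f2) and chr11:120731972-120732271 on the minus strand (Cbr2). Each reads 5′ to 3′ along its gene, and capitals mark the letters of a motif.
Scgb3a1: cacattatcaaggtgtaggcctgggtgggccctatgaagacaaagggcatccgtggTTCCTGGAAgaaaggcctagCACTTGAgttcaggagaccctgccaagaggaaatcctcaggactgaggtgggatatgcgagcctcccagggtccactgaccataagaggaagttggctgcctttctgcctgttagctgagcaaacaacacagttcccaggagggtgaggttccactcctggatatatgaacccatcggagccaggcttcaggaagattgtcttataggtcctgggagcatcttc
Reg3g: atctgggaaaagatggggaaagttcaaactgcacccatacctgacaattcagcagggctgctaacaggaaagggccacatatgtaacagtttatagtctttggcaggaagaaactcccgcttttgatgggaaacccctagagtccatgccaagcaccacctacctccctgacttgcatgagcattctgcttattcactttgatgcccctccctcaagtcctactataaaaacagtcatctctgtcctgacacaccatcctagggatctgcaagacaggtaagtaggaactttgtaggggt
Cyp2f2: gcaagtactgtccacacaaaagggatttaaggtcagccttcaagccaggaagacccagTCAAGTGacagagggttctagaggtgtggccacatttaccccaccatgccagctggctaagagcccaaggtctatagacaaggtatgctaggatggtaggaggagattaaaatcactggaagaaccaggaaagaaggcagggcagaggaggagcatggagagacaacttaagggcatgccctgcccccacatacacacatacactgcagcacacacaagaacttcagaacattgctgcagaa
Cbr2: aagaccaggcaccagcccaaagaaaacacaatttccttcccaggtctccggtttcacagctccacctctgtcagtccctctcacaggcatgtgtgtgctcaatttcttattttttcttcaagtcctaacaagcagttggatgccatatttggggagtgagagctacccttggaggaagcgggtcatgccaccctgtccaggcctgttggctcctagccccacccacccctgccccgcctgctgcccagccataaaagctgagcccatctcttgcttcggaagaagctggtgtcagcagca

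The letters searched, on both strands, were CACTTGA or CACTTGG for NKX2 factors, TTCNNNGAA for STAT factors, TGTTTAC for FOXA factors, TTGCNNAA for C/EBP factors and GTGGGAA for RBPJ, the DNA-binding partner of Notch. Scgb3a1 held the NKX2 letters at -174 and the STAT letters at -194 from its start site, without overlap, and Cyp2f2 held the NKX2 letters, read on the other strand, at -192. Reg3g and Cbr2 held none of the 5 motifs, and Aldh1a1 had the C/EBP letters at -13 from the first of its start sites. Among 32851 promoters of this length, 7.45% held the NKX2 letters, 8.3% the STAT letters, 10.8% the C/EBP letters, 3.65% the FOXA letters and 6.38% the RBPJ letters. A match describes the sequence only.

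The 7 genes differed widely in how far mice spread. Reg3g spanned 8.45 log2 units over the 36 mice, the 4th largest range among 45037 probe sets, and Scgb3a1 spanned 6.45, the 17th largest. The other 5 spanned 0.12 (Scgb1a1), 0.47 (Cbr2), 0.54 (Aldh1a1), 0.60 (Scgb3a2) and 0.65 (Cyp2f2), each below the median range of 0.84.

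Scgb1a1 (1452543_a_at) barely varied. All 36 mice lay between -0.08 and 0.04, the third smallest range on the array, after Tpt1 and Tmsb4x and just before Sftpc, the surfactant protein C gene of alveolar type 2 cells (these 3 genes were named after their values were seen). In Notch3-/- mice it was at 0.00 in all 3 mice after 24 hr of ozone, whose deposited values were identical, and at -0.04, -0.03 and -0.03 in air. The 36 arrays held 31 distinct values, and no other probe set had so few, the median being 36. Scgb1a1 was called in none of the 22 comparisons. In the mean of genotypes, ozone and air differed by 0.03 (SE 0.03, adjusted p = 0.649) at 6 hr, by 0.02 (95% interval -0.04 to 0.08, adjusted p = 0.744) at 24 hr and by 0.02 (adjusted p = 0.837) at 48 hr. Notch3-/- and WT mice differed by -0.01 (adjusted p = 0.873), and Notch4-/- and WT mice by -0.00 (95% interval -0.06 to 0.05, adjusted p = 0.966). The within-group SD of Scgb1a1 was 0.024, against a median of 0.17 over all probe sets. Limma raises so small a spread toward one shared over probe sets, which widens these intervals. Exact permutation on its values alone gave unadjusted p = 0.0205 at 6 hr, 0.183 at 24 hr and 0.215 at 48 hr. Against WT the exact p was 0.238 (Notch3-/-) and 0.791 (Notch4-/-). How near these spots were to the top of the signal range cannot be read from centred values, and its part in the narrow range was not tested.

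Scgb3a1 (1419699_at) was higher in both knockouts than in WT mice. Over the 4 exposures it averaged 0.27 ± 1.12 in Notch3-/- mice and -2.46 ± 2.05 in WT mice (SD, n = 12 each), a difference of 2.74 or 6.67-fold (SE 0.57, adjusted p = 0.0022). Notch4-/- mice averaged -0.27 ± 1.99, which was 2.19 or 4.57-fold above WT (SE 0.57, adjusted p = 0.018, and 0.0474 without the intermediate Notch4-/- air mice). This Notch4-/- call was lost with the methods' ANOVA and Tukey's test (adjusted p = 0.0986). In WT mice at 24 hr of ozone it was at its lowest level in the series.

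In air, Scgb3a1 was at -1.80, 1.20 and -0.11 in Notch3-/- mice, at 1.23, 1.08 and 1.10 in Notch4-/- mice, and at -0.68, 0.76 and -1.93 in WT mice. After 6 hr of ozone it was at 1.43, 1.14 and 0.15 in Notch3-/- mice, at 0.67, -0.49 and -1.31 in Notch4-/- mice, and at 0.89, -1.87 and -4.32 in WT mice. The Notch4-/- mice in air were the tightest of these groups and lay above every WT mouse in air. At 24 hr the values were -0.44, 0.71 and 0.71 in Notch3-/- mice, 1.11, -4.00 and -4.40 in Notch4-/- mice, and -4.35, -4.03 and -5.02 in WT mice. At 48 hr they were 1.26, 0.84 and -1.81 in Notch3-/- mice, 0.46, 1.18 and 0.11 in Notch4-/- mice, and -3.48, -4.09 and -1.45 in WT mice. Every Notch3-/- mouse at 24 hr and every Notch4-/- mouse at 48 hr lay above the WT mice of that time, whereas the Notch4-/- mice at 24 hr split, replicate 1 standing at the level of air and the others at that of WT mice.

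**Figure D1:**
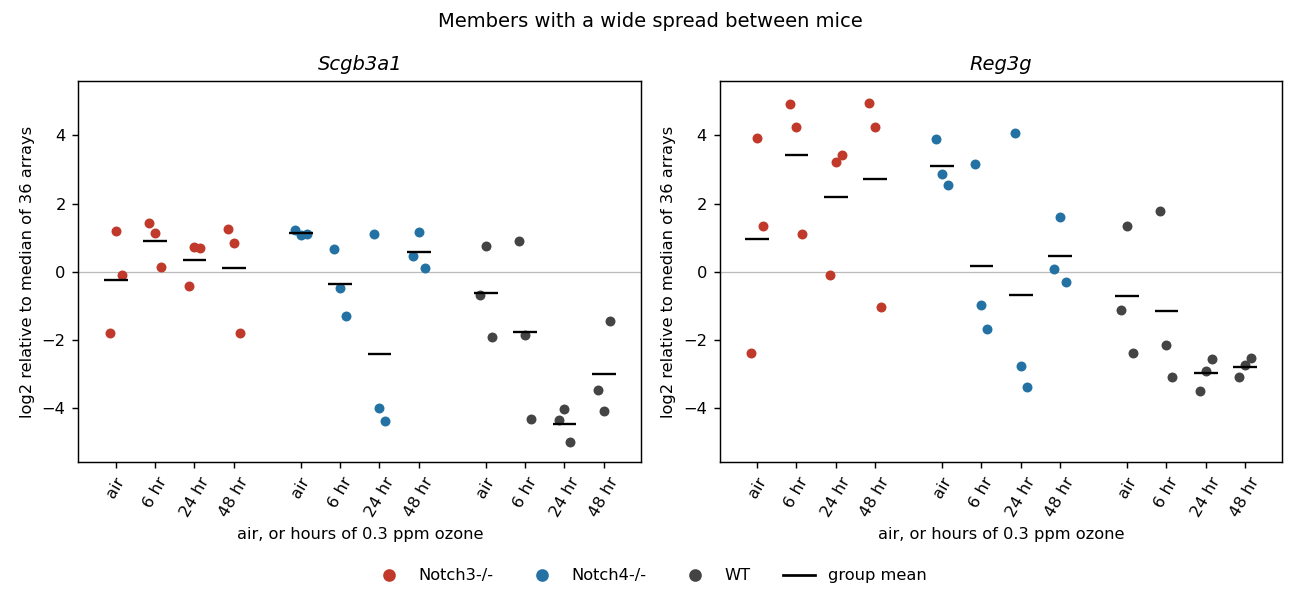
Levels of Scgb3a1 and Reg3g in each of the 36 mice (points, 3 per group) with the group mean (line), as log2 relative to the median of the 36 arrays, for Notch3-/-, Notch4-/- and WT mice in air and after 6, 24 and 48 hr of ozone. At 24 hr the WT mice lie at -4.03 or below for Scgb3a1 and at -2.56 or below for Reg3g, and the Notch4-/- mice split.

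Against air, Scgb3a1 fell by 2.29 at 24 hr in the mean of genotypes (4.88-fold, SE 0.66, adjusted p = 0.0391), with differences of -0.51 (adjusted p = 0.708) at 6 hr and -0.87 (adjusted p = 0.49) at 48 hr. By genotype, the 24 hr difference was 0.56 (adjusted p = 0.832) in Notch3-/-, -3.57 (adjusted p = 0.104) in Notch4-/- and -3.85 (adjusted p = 0.351) in WT mice. Without replicate 1 of the Notch4-/- mice at 24 hr, the Notch4-/- difference was -5.34 (adjusted p = 0.011), and without the intermediate Notch4-/- air mice it was -3.54 (adjusted p = 0.197). The call in the mean of genotypes was lost, at -2.36 to -1.96 with adjusted p of 0.0512 to 0.1, without any 1 of WT air replicate 2, WT 24 hr replicates 1 to 3, Notch3-/- air replicates 2 and 3, Notch3-/- 24 hr replicates 1 and 2, Notch4-/- air replicates 1 and 3, and Notch4-/- 24 hr replicates 2 and 3. Without both Notch4-/- air mice of intermediate Notch4 signal it was also lost (adjusted p = 0.0716).

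Reg3g (1448872_at) followed a pattern like that of Scgb3a1. It averaged 2.32 in Notch3-/- mice and -1.92 in WT mice, a difference of 4.24 or 18.9-fold (SE 0.88, 95% interval 2.44 to 6.04, adjusted p = 0.00206). Notch4-/- mice averaged 0.76, which was 2.68 above WT and was not called (SE 0.88, 95% interval 0.88 to 4.48, adjusted p = 0.0715), and 2.54 (adjusted p = 0.14) without the intermediate Notch4-/- air mice.

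In air, Reg3g was at -2.39, 3.91 and 1.33 in Notch3-/- mice, at 3.90, 2.88 and 2.55 in Notch4-/- mice, and at -1.12, 1.33 and -2.38 in WT mice. After 6 hr of ozone it was at 4.93, 4.26 and 1.10 in Notch3-/- mice, at 3.16, -0.97 and -1.68 in Notch4-/- mice, and at 1.79, -2.17 and -3.10 in WT mice. Single mice of 1 group thus differed by up to 6.31 in air, and in air and at 6 hr only the Notch4-/- mice in air lay wholly above the WT mice. At 24 hr it was at -0.09, 3.22 and 3.44 in Notch3-/- mice, at 4.08, -2.79 and -3.40 in Notch4-/- mice, and at -3.51, -2.91 and -2.56 in WT mice. At 48 hr it was at 4.95, 4.25 and -1.03 in Notch3-/- mice, at 0.09, 1.61 and -0.31 in Notch4-/- mice, and at -3.10, -2.74 and -2.53 in WT mice. The WT mice at 24 and 48 hr lay below every WT mouse in air, the Notch3-/- mice at both times lay above the WT mice, and the Notch4-/- mice at 48 hr lay above the WT mice and below their own air group. Ozone and air differed by -0.30 (adjusted p = 0.902), -1.61 (adjusted p = 0.37) and -0.98 (adjusted p = 0.643) at 6, 24 and 48 hr in the mean of genotypes, none of them called. The Notch4-/- minus WT difference in air was 3.84 (adjusted p = 0.628), or 3.28 (adjusted p = 0.646) without the intermediate mice.

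Scgb3a2 (1425218_a_at) fell by 0.22 at 24 hr of ozone in the mean of genotypes (1.16-fold, SE 0.06, adjusted p = 0.0337), against differences of 0.03 (adjusted p = 0.845) at 6 hr and -0.09 (adjusted p = 0.437) at 48 hr. At 24 hr it was at -0.12, -0.03 and 0.04 in Notch3-/- mice, at 0.19, -0.38 and -0.39 in Notch4-/- mice, and at -0.25, -0.32 and -0.29 in WT mice. In air it was at -0.10, 0.16 and -0.09 in Notch3-/- mice, at 0.19, 0.12 and 0.11 in Notch4-/- mice, and at 0.05, 0.10 and -0.12 in WT mice. As with Scgb3a1, all 3 WT mice at 24 hr lay below all 3 in air, the Notch4-/- mice split with replicate 1 at the level of air, and the Notch3-/- mice overlapped theirs. The Notch3-/- minus WT difference over exposures was 0.14 (SE 0.05, adjusted p = 0.13), and the Notch4-/- minus WT difference 0.10 (adjusted p = 0.341). The 24 hr call was lost, at -0.22 to -0.18 with adjusted p of 0.0544 to 0.0872, without any 1 of WT air replicate 2, WT 24 hr replicates 2 and 3, Notch3-/- air replicate 2, Notch3-/- 24 hr replicate 1, Notch4-/- air replicates 1 and 3, and Notch4-/- 24 hr replicates 2 and 3. It was also lost without both intermediate Notch4-/- air mice (adjusted p = 0.0738), and without replicate 1 of the Notch4-/- mice at 24 hr the Notch4-/- difference was -0.52 (adjusted p = 0.0032), against -0.33 (adjusted p = 0.104) with it.

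**Figure D2:**
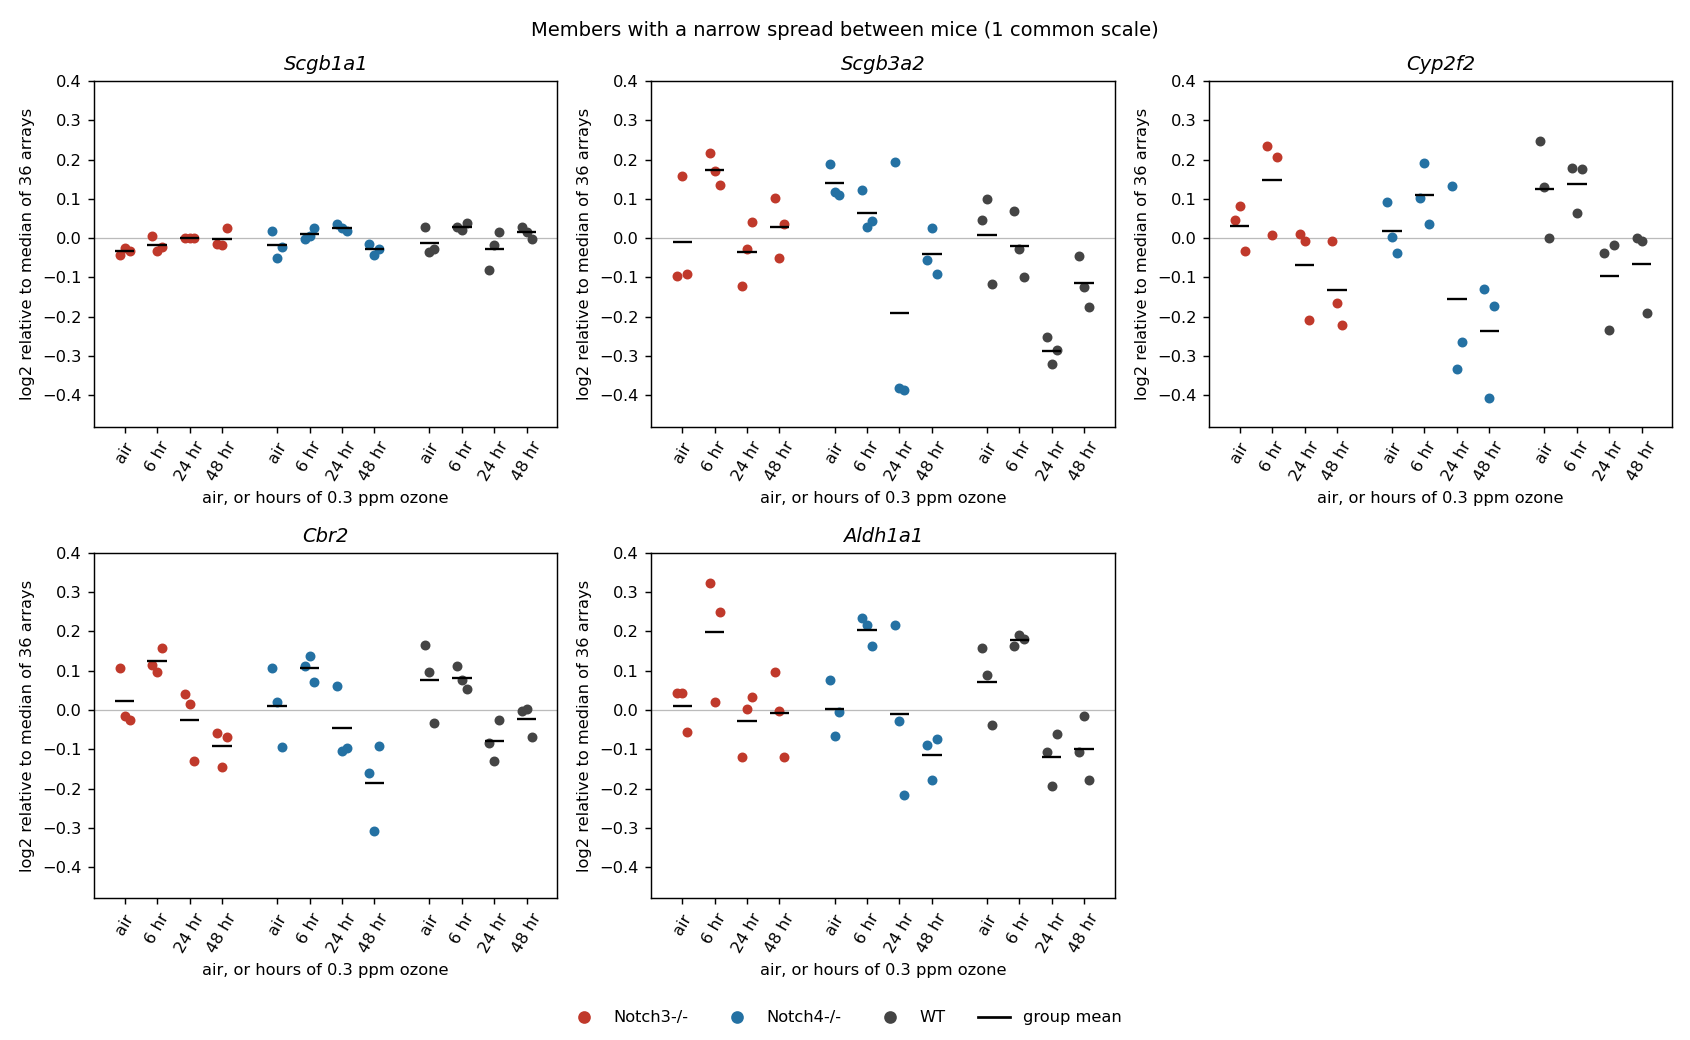
Levels of Scgb1a1, Scgb3a2, Cyp2f2, Cbr2 and Aldh1a1 in each of the 36 mice (points, 3 per group) with the group mean (line), as log2 relative to the median of the 36 arrays, all on 1 scale, for Notch3-/-, Notch4-/- and WT mice in air and after 6, 24 and 48 hr of ozone. Scgb1a1 stays between -0.08 and 0.04, while Cyp2f2 reaches -0.41 in a Notch4-/- mouse at 48 hr.

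The enzymes Cyp2f2 (1448792_a_at) and Cbr2 (1418509_at) fell slightly by 48 hr of ozone. Cyp2f2 was at -0.01, -0.17 and -0.22 in Notch3-/- mice, at -0.13, -0.41 and -0.17 in Notch4-/- mice, and at -0.00, -0.01 and -0.19 in WT mice at 48 hr. In air it was at 0.05, 0.08 and -0.03 in Notch3-/- mice, at 0.09, 0.00 and -0.04 in Notch4-/- mice, and at 0.25, 0.13 and 0.00 in WT mice. The Notch4-/- and WT mice at 48 hr lay below their air groups, and the Notch3-/- mice overlapped theirs. In the mean of genotypes Cyp2f2 fell by 0.20 (1.15-fold, SE 0.06, adjusted p = 0.0303), after differences of 0.07 (adjusted p = 0.54) at 6 hr and -0.17 (adjusted p = 0.116) at 24 hr. The Notch4-/- mice split at 24 hr here too, at 0.13, -0.33 and -0.26, and without replicate 1, the mouse at 0.13, the 24 hr difference in the mean of genotypes was -0.21 (adjusted p = 0.0217). Cbr2 was at -0.06, -0.15 and -0.07 in Notch3-/- mice, at -0.16, -0.31 and -0.09 in Notch4-/- mice, and at -0.00, 0.00 and -0.07 in WT mice at 48 hr. In air it was at 0.11, -0.01 and -0.02 in Notch3-/- mice, at 0.11, 0.02 and -0.09 in Notch4-/- mice, and at 0.17, 0.10 and -0.03 in WT mice. Here only the Notch3-/- mice lay wholly below their air group. Cbr2 fell by 0.14 at 48 hr in the mean of genotypes (1.10-fold, SE 0.04, adjusted p = 0.0383), after differences of 0.07 (adjusted p = 0.412) at 6 hr and -0.09 (adjusted p = 0.243) at 24 hr. Neither enzyme was called between a knockout and WT, the differences being -0.03 (adjusted p = 0.858) and -0.09 (adjusted p = 0.384) for Cyp2f2, and -0.01 (adjusted p = 0.966) and -0.04 (adjusted p = 0.607) for Cbr2, in Notch3-/- and in Notch4-/- mice. The 48 hr call of Cyp2f2 was lost (adjusted p of 0.0538 to 0.0749) without any 1 of WT air replicate 1, WT 48 hr replicate 3, Notch3-/- air replicates 1 and 2, Notch3-/- 48 hr replicates 2 and 3, Notch4-/- air replicate 1 and Notch4-/- 48 hr replicate 2, and that of Cbr2 (0.0593 to 0.0956) without any 1 of WT air replicates 1 and 2, WT 48 hr replicate 3, Notch3-/- air replicate 1, Notch3-/- 48 hr replicate 2, Notch4-/- air replicates 1 and 2 and Notch4-/- 48 hr replicate 2. Without both intermediate Notch4-/- air mice the adjusted p was 0.133 for Cyp2f2 and 0.241 for Cbr2.

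Aldh1a1 (1416468_at) was called in no comparison, and its difference from air was greatest at 6 hr. It was at 0.32, 0.02 and 0.25 in Notch3-/- mice, at 0.24, 0.22 and 0.16 in Notch4-/- mice, and at 0.16, 0.19 and 0.18 in WT mice at 6 hr. In air it was at 0.04, 0.04 and -0.05 in Notch3-/- mice, at 0.08, -0.07 and -0.01 in Notch4-/- mice, and at 0.16, 0.09 and -0.04 in WT mice. The Notch4-/- and WT groups lay above air, and replicate 2 of the Notch3-/- mice did not. The mean difference was 0.17 (1.12-fold, SE 0.05, 95% interval 0.06 to 0.28, adjusted p = 0.0804), followed by -0.08 (adjusted p = 0.396) at 24 hr and -0.10 (adjusted p = 0.269) at 48 hr. Without that Notch3-/- mouse the 6 hr difference was 0.20 (adjusted p = 0.037), and without the intermediate Notch4-/- air mice 0.17 (adjusted p = 0.133). The knockout minus WT differences were 0.04 (Notch3-/-, adjusted p = 0.788) and 0.01 (Notch4-/-, adjusted p = 0.918).

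Counted over the genes, 4 of 21 tests of ozone against air in the mean of genotypes were called, all lower in ozone, where 6.29% of all tests were called over the 3 times. At 6 hr none of the 7 genes was called, where 2.9% of probe sets were. At 24 hr, 2 of 7 were called, both lower, against 5.29% of probe sets in either direction and 2.1% lower. At 48 hr, 2 of 7 were called, both lower, against 10.7% in either direction and 3.96% lower. Between knockout and WT in the mean of exposures, 3 of 14 tests were called, all higher in the knockout, against 5.72% of all tests in either direction, with 5.68% called in Notch3-/- mice (3.28% higher) and 5.76% in Notch4-/- mice (2.87% higher). Within single genotypes none of 63 tests of ozone against air was called, with 12 at an unadjusted p under 0.05, none by the methods' ANOVA with Tukey's test, and 1.16% called over all probe sets. Between knockout and WT in air none of 14 was called (1 unadjusted, none by the ANOVA, 0.484% overall). For the difference in ozone response between knockout and WT none of 42 was called (1 unadjusted, none by the ANOVA, 0.00296% overall). That 1 was Scgb3a1 at 24 hr, where the Notch3-/- response exceeded the WT response by 4.41 (SE 1.62, 95% interval 1.10 to 7.72, adjusted p = 0.439). The ozone comparisons share the air mice, and the knockout comparisons share the WT mice.

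**Figure D3:**
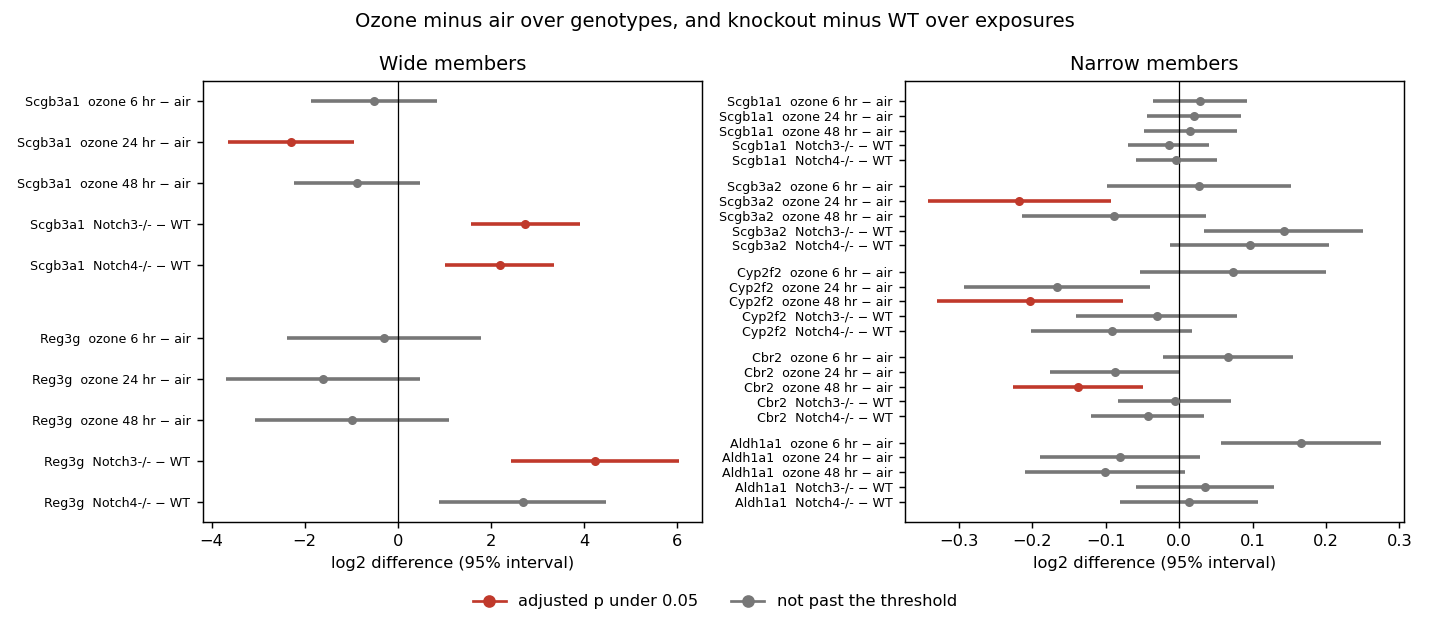
Differences of the 7 genes in log2 units with 95% intervals, for ozone against air at 6, 24 and 48 hr in the mean of the 3 genotypes and for Notch3-/- and Notch4-/- against WT in the mean of the 4 exposures; red marks an adjusted p under 0.05. The called ozone differences are Scgb3a1 and Scgb3a2 at 24 hr and Cyp2f2 and Cbr2 at 48 hr, and the called knockout differences are Scgb3a1 in both lines and Reg3g in Notch3-/-.

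Across the 36 mice the closest relations lay within 2 sets of genes. These were Scgb3a1, Reg3g and Scgb3a2 on the 1 side, and Cyp2f2, Cbr2 and Aldh1a1 on the other. Relations between the sets were weaker, though less clearly so in deviations from group means. Scgb3a1 and Reg3g correlated at r = 0.89 (rho = 0.94, permutation p = 1e-05, the smallest that 100000 resamples can give, adjusted p = 3.5e-05 over the 21 pairs of genes), at 0.90 without the 2 mice farthest from the median and at 0.90 in deviations from the group means. Scgb3a2 joined them, at r = 0.83 with Scgb3a1 (rho = 0.82) and 0.78 with Reg3g (rho = 0.79), both with permutation p = 1e-05 and adjusted p = 3.5e-05. These were 0.78 and 0.77 without the 2 farthest mice, and 0.75 each in deviations from group means. Cyp2f2 and Cbr2 correlated at r = 0.90 (rho = 0.93, permutation p = 1e-05, adjusted p = 3.5e-05), at 0.88 without the 2 farthest mice and at 0.78 in deviations from group means. Aldh1a1 went with Cyp2f2 (r = 0.80, rho = 0.81, permutation p = 1e-05, adjusted p = 3.5e-05, 0.83 without the 2 farthest mice), and with Scgb3a2 of the other set at 0.63 (rho = 0.66, permutation p = 6e-05, adjusted p = 0.00018). Between the sets, Scgb3a2 also correlated with Cyp2f2 at 0.55 (rho = 0.58, permutation p = 0.00049, adjusted p = 0.00129, 0.42 without the 2 farthest mice) and with Cbr2 at 0.45 (rho = 0.52, permutation p = 0.00644, adjusted p = 0.015, 0.40 without them), and Aldh1a1 with Reg3g at 0.38 (rho = 0.44, permutation p = 0.0227, adjusted p = 0.0476, 0.31 without them), while Scgb3a1 and Cyp2f2 correlated at 0.24 (rho = 0.27, permutation p = 0.162, adjusted p = 0.241). Aldh1a1 and Cbr2, of 1 set, correlated at 0.74 (rho = 0.74), but at 0.49 in deviations from group means. In such deviations some relations between the sets were as close. Aldh1a1 stood at 0.62 with Scgb3a2 and 0.49 with Reg3g, and Scgb3a2 at 0.55 with Cyp2f2 and 0.31 with Cbr2. Scgb1a1 correlated between -0.23 and 0.31 with the others, with adjusted p of 0.114 or more. The permutations crossed the 12 groups, so these p-values also count differences between groups.

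The 3 genes whose levels were most like those of each member were picked by Pearson correlation over the 36 arrays. Scgb3a1 was closest to Bpifa1 (r = 0.95), a secreted antimicrobial protein of the upper airways, its relative Bpifb1 (0.95) and the sulfotransferase gene Sult1d1 (0.91), and Reg3g to Bpifb1 (0.98), the trefoil peptide gene Tff2 (0.96) and Bpifa1 (0.95). Scgb3a2 was closest to Lypd2 (0.93), Zmynd12 (0.92) and Dynlrb2 (0.91), a dynein light chain of ciliated cells. Cyp2f2 was closest to Acss1 (0.87), Ephx1 (0.83), the microsomal epoxide hydrolase, and Epb41l4b (0.83), and Cbr2 to Fhdc1 (0.85), Ephx1 (0.85) and Slc4a5 (0.84). Aldh1a1 was closest to Cracdl (0.84), Mycbpap (0.82) and Usp2 (0.82), and Scgb1a1 had no neighbour above Ppp2r1a (0.60). Several of these were called too, but genes picked for likeness to a member over the same mice give no separate support. Bpifa1 was 4.61 higher in Notch3-/- than in WT mice (SE 1.06, adjusted p = 0.00578). It was not called in Notch4-/- mice (3.13, adjusted p = 0.0823) or at 24 hr of ozone (-2.98, adjusted p = 0.155). Ephx1 fell by 0.40 at 24 hr (adjusted p = 0.00075) and by 0.59 at 48 hr (adjusted p = 7.71e-07). At those times the differences were -0.17 and -0.20 for Cyp2f2 and -0.09 and -0.14 for Cbr2.

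**Figure D4:**
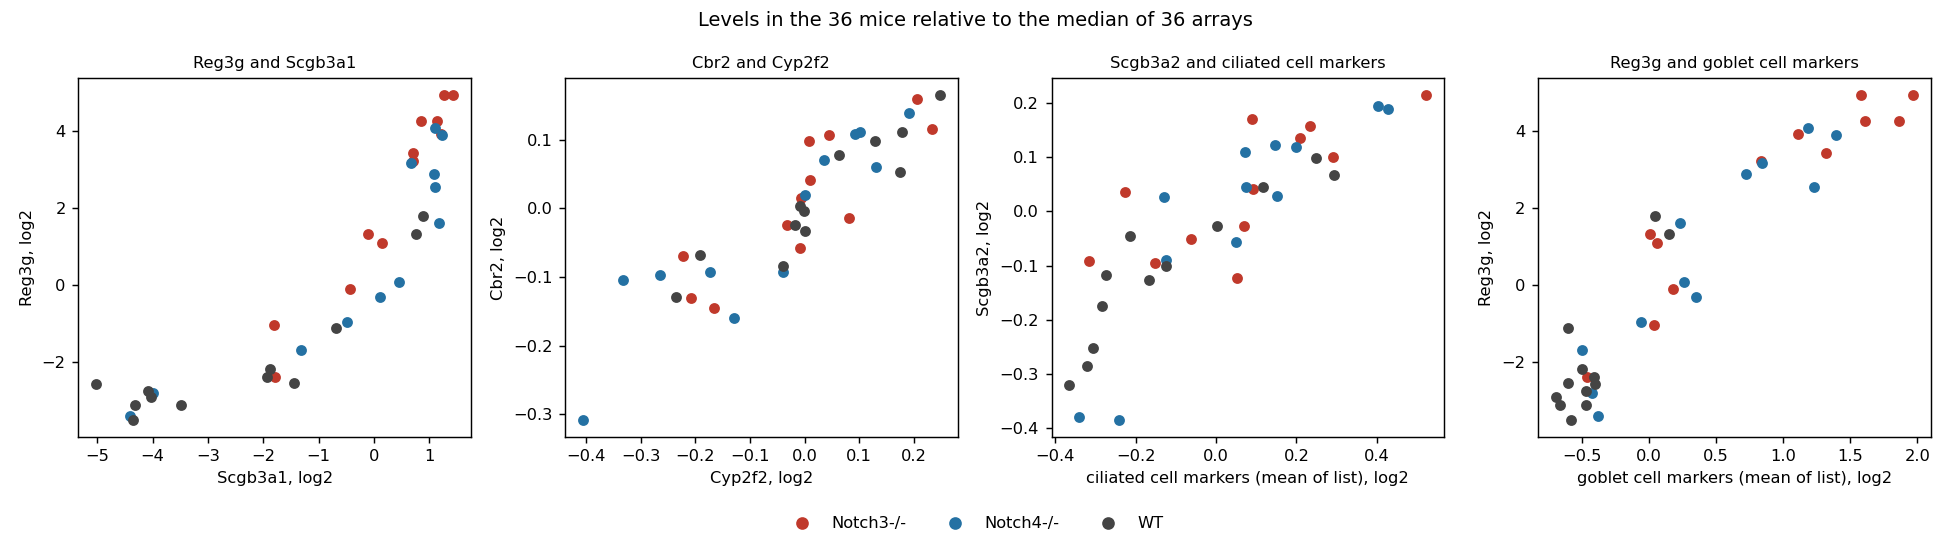
Levels in each of the 36 mice for Scgb3a1 against Reg3g, Cyp2f2 against Cbr2, the mean of the ciliated cell markers against Scgb3a2 and the mean of the goblet cell markers against Reg3g, all as log2 relative to the median of the 36 arrays. Pearson correlations are 0.89, 0.90, 0.85 and 0.94.

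Markers of neighbouring cell types moved with some of these results. Beside the counts below, 5.68% of all probe sets were called in Notch3-/- and 5.76% in Notch4-/- mice against WT, in either direction. Against air, 5.29% were called at 24 hr and 10.7% at 48 hr. Of 9 goblet cell markers measured, 6 were called higher in Notch3-/- and 4 in Notch4-/- mice, among them Tff2 (2.23, adjusted p = 0.00103, and 1.42, adjusted p = 0.0488), and none was called between ozone and air. The mean of the list ran from -0.46 to 1.97 (median 0.97) in Notch3-/- mice, from -0.50 to 1.40 (0.31) in Notch4-/- mice and from -0.69 to 0.15 (-0.49) in WT mice. It correlated at 0.94 with Reg3g and 0.77 with Scgb3a1, and its part in those differences was not tested. By comparison, Scgb1a1 correlated at -0.17 with Reg3g and -0.23 with Scgb3a1, and Scgb3a2 at 0.78 and 0.83. Of 18 ciliated cell markers measured, 2 were called lower at 24 hr (Tppp3 -0.61, Dynlrb2 -0.52), where 2.1% of all probe sets were. At 48 hr 1 was called lower (Tppp3 -0.60), a share near the 3.96% of all probe sets. The mean of these markers ran from -0.36 to 0.40 (median -0.24) at 24 hr and from -0.32 to 0.43 (0.12) in air. It correlated at 0.85 with Scgb3a2, 0.76 with Scgb3a1, 0.76 with Reg3g, 0.71 with Aldh1a1 and 0.63 with Cyp2f2. The Notch4-/- mice at 24 hr split in this list as well, at 0.40, -0.34 and -0.24. Against WT, 1 ciliated cell marker was called higher in each knockout. The median of the list was 0.20 in Notch3-/- and 0.16 in Notch4-/- mice, against 0.00 over all probe sets. The part of these markers in the 24 hr falls of Scgb3a1 and Scgb3a2, and in the knockout differences, was not tested. Of 9 neutrophil markers, 7 were called higher in Notch3-/- and 7 in Notch4-/- mice. Their mean correlated with Scgb3a1 at 0.51, though at -0.02 in deviations from group means. Of 8 alveolar type 1 markers, 2 were called lower and 1 higher in Notch3-/- mice and 3 lower in Notch4-/- mice, and their mean correlated at -0.58 with Scgb3a1 and -0.59 with Reg3g. Of 8 endothelial markers, 3 were called lower in each knockout (-0.49 with Scgb3a1 and -0.45 with Reg3g). The 8 skeletal muscle markers had no call, but the ranks of their mean followed Scgb3a1 (rho = 0.66, r = 0.17) and Reg3g (rho = 0.67, r = 0.25). The part of these lists in the knockout differences was not tested. The 7 basal cell markers and 3 neuroendocrine cell markers had no call in these 5 comparisons. At 48 hr, when Cyp2f2 and Cbr2 were lower, 6 of 9 macrophage markers were called higher and 5 of 8 endothelial markers lower, and their part in that result was not tested.

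Calls among the other genes of club cells went both ways at 24 and 48 hr. Of 35 measured, 2 were called higher and 2 lower at 24 hr, beside 5.29% of all probe sets called, and the median of the list was -0.19 against -0.02 over all probe sets. At 48 hr 2 were called higher and 3 lower, beside 10.7% of all probe sets called, a share near that background (median -0.12 against -0.01). The mean of the list was at -0.50, -0.46 and -0.43 in WT mice at 24 hr, below the WT mice in air (0.07, 0.31 and -0.40). In Notch4-/- mice at 24 hr it split as some members did, at 0.51, -0.61 and -0.60. The Notch3-/- mice at 24 hr (-0.10, 0.19 and 0.15) overlapped theirs in air (-0.27, 0.36 and -0.26). The likeness of this mean to the members was not tested. Pigr, the receptor that carries IgA across the epithelium, was higher by 1.32 (SE 0.21, adjusted p = 0.000251) at 24 hr and was called higher at 48 hr too (adjusted p = 0.00171). Dcxr, a carbonyl reductase relative of Cbr2, fell by 0.39 at 24 hr (adjusted p = 0.00274). At 6 hr, where 2.9% of all probe sets were called, 2 were called higher, among them Pir (0.40, adjusted p = 0.0254). Against WT, 6 were called higher and 5 lower in Notch3-/- mice (5.68% of all probe sets called), and 2 higher and 4 lower in Notch4-/- mice (5.76%). Of the 10 aldehyde dehydrogenase and carbonyl reductase relatives, only Aldh1a3 was called at 24 hr (0.32, adjusted p = 0.0197) and only Cbr4 at 48 hr (0.26, adjusted p = 0.0445), both higher. Beside them, 5.29% and 10.7% of all probe sets were called at these times, and the medians of the list were -0.07 and -0.00.

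Reg3g is induced through STAT3 signaling in mucosal tissue, and 19 genes of that axis and of the REG family were measured. At 24 hr 9 were called higher and none lower, beside 5.29% of all probe sets called. The same numbers held at 48 hr, beside 10.7%. They included Il6 (3.05 and 2.56), Saa3 (3.00 and 2.84), Socs3 (1.38 and 1.31) and Lcn2 (1.29 and 1.53). Reg3g differed by -1.61 and -0.98 at these times in the mean of genotypes, and none of its 6 relatives of the REG family was called. The genotypes went opposite ways, with no call within any of them. From air to 24 and 48 hr, mean Reg3g went from 0.95 to 2.19 and 2.72 in Notch3-/- mice. It went from 3.11 to -0.70 and 0.46 in Notch4-/- mice, and from -0.73 to -2.99 and -2.79 in WT mice. Reg3b, a close relative, differed between Notch3-/- and WT mice by -0.00 (adjusted p = 0.986, named after its value was seen), against 4.24 for Reg3g. Among 19 regulators of airway secretory cells, 1 was called higher and 2 lower at 6 hr, beside 2.9% of all probe sets called. At 24 hr 3 were called higher (5.29%) and at 48 hr 1 lower (10.7%). The Notch receptor Notch2 (-0.34, adjusted p = 0.00212) and the Notch target Hes1 (-0.43, adjusted p = 0.0142) fell at 6 hr. Cebpd, which codes for a C/EBP factor, rose at 6 hr (1.02, adjusted p = 0.00371) and at 24 hr (0.90). Against WT, 1 regulator was called higher and 2 lower in Notch3-/- mice (5.68% of all probe sets called), and 2 lower in Notch4-/- mice (5.76%).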

How the data were processed

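RNA of 36 left lungs was measured on Affymetrix mouse expression arrays. The deposited log2 values were made by the authors with robust multiarray average in GeneSpring GX, which includes quantile normalization, and each probe set is centred on its median over the arrays, a step found in the values and not given in the sources used here. Array medians lay between -0.03 and 0.03, and the number of arrays limits the precision.

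After 64 control probe sets were left out of 45101, 45037 were fitted with limma 3.58.1 (R 4.3.3) with 12 group means, and p-values were adjusted by Benjamini-Hochberg within each of 22 comparisons. The methods' ANOVA with Tukey's test, repeated quantile normalization, array weights, a robust prior, a replicate block and leaving out each array were alternatives. Where leaving out 1 mouse gained a call, that mouse was picked by its effect on the result, so the smaller p gives no separate support. Leaving out a pair of Notch4-/- air mice and the exact permutation tests (scipy 1.17.1) were added after seeing the data. The fit was tested on simulated data. Limma p-values of the group comparisons rest on the spread between individual mice, combined with a spread shared over all probe sets. Those of the correlations come from permutations across all 36 mice, whatever their group.

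The members and gene lists were chosen with earlier results of these data known. Named genes were the members, the 3 genes most correlated with each, and up to 4 genes per list with the lowest ozone p. Gene symbols came from the platform annotation, which gave 34945 probe sets 1 symbol, 932 several and 9160 none. Of those with 1 symbol, 34741 matched RefSeq.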

Additional observations from a re-analysis of the deposited data

Results flagged for a closer look

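At 6 hr of ozone, Scgb3a1 and Scgb3a2 lay on opposite sides of the air mean in the knockout lines, though neither was called against air in either line. Every Notch3-/- mouse lay above the mean of its air group and every Notch4-/- mouse below the mean of its own. Such opposite sides were looked for in each of the 7 genes, at the 3 ozone times and for each pair of the 3 genotypes. The share of all probe sets that meet this rule was not counted. For Scgb3a2 the 6 hr levels were 0.22, 0.17 and 0.14 in Notch3-/- mice, whose air mean was -0.01, and 0.12, 0.03 and 0.04 in Notch4-/- mice, whose air mean was 0.14. The Notch3-/- response minus the Notch4-/- response was 2.66 for Scgb3a1 and 0.26 for Scgb3a2, and this difference was not tested. Without the intermediate Notch4-/- air mice, the Notch4-/- difference from air was -1.48 (adjusted p = 0.755) for Scgb3a1 and -0.04 (adjusted p = 0.939) for Scgb3a2, and for Scgb3a2 the Notch4-/- mouse at 0.12 was no longer below the single air mouse left, at 0.11. The levels of these genes correlated across the 36 mice (r = 0.83, rho = 0.82, permutation p = 1e-05 with mice shuffled across groups). In deviations from group means they correlated at 0.75.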

How the results depend on the processing

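The calls of ozone against air in the mean of genotypes were the least stable. The 4 calls became 0 with the methods' ANOVA and Tukey's test, 2 with arrays quantile normalized once more and 0 without Notch4-/- air replicates 1 and 2 together (chosen after seeing the data), and ranged from 0 to 5 when each array was left out, with 0 without Notch4-/- air replicate 1 alone. They were 6 with array weights, which added Aldh1a1 at 6 hr (adjusted p = 0.0155) and Cyp2f2 at 24 hr (0.0204), 3 with the robust prior, which lost Scgb3a1 at 24 hr (0.0516), and 3 with adjustment over all comparisons together, which lost Cbr2 at 48 hr (0.0541). Within genotypes the 0 calls became 4 with array weights and ranged from 0 to 2 when each array was left out, 2 of them without Notch4-/- 24 hr replicate 1. Knockout against WT gave 3 calls in the mean of exposures, 3 to 4 when each array was left out, and 0 throughout in air, as did the response differences. Scgb3a1 in Notch4-/- against WT was not called by the ANOVA (adjusted p = 0.0986), and Reg3g in Notch4-/- was called with repeated quantile normalization (2.91, adjusted p = 0.0237) and with array weights (2.77, adjusted p = 0.039). No called value changed sign.

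Exact permutation tests of single genes, two-sided and within strata (35 tests, chosen after seeing the data), gave p = 0.0217 for Scgb3a1 and 0.0187 for Scgb3a2 at 24 hr, 0.001 for Cyp2f2 and 0.002 for Cbr2 at 48 hr and 0.00125 for Aldh1a1 at 6 hr, and against WT 0.00115 and 0.00224 for Scgb3a1 and 0.000425 and 0.00358 for Reg3g in Notch3-/- and Notch4-/- mice. Other unadjusted values under 0.05 were those of Scgb1a1 at 6 hr (exact p = 0.0205), Cyp2f2 at 24 hr (0.022), Aldh1a1 at 48 hr (0.0238) and Scgb3a2 in Notch3-/- (0.0033) and Notch4-/- mice (0.049). The labels give the replicate numbers no shared animal or batch, so the numbers were not taken to pair the mice. Of 198 same-number pairs, 89 correlated above 0.1, with no such count made for different numbers. As a hint from the data, 22 of 36 arrays were closest to those of their own number, and the median correlation was 0.074 for the same number and -0.050 for different numbers. With the replicate block the calls were 0 within genotypes, 4 in the mean of genotypes, 0 in air, 3 in the mean of exposures and 0 for the response differences, and the block changed no call. No member had another probe set, so that alternative was not run, and a fit on only the genotypes compared could not be made for the mean of genotypes. Centred values give no signal over background, so dim and saturated probe sets could not be told apart.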
